A study of Homo sapiens with 12 samples.

Results

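The transcripts described here are 55 genes of the G1/S transition and DNA replication, of 19775 human genes that have a probe set of their own on the array. They were chosen by name from textbook roles, with earlier results of these data already known. Of these, 15 act in origin licensing and 8 in origin firing, and 10 are DNA polymerase subunits. Another 7 are of the sliding clamp, its loader and flap removal, 4 act in nucleotide supply and 11 are regulators of S phase entry. Each gene was read by the probe set with the highest mean log2 signal over the 12 arrays among those the platform annotation gives to that gene alone. All 55 passed the filter on low signals and were tested among 13784 genes.

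The arrays hold SW13 cells, a human adrenocortical carcinoma line that lacks the chromatin remodelling ATPase BRG1 (gene SMARCA4), carrying either the pREP7 vector (SW13+vector) or pREP7 with BRG1 (SW13+BRG1). Both were mock-treated or given 10 J/m2 of UV and collected 6 h later, with 3 arrays per group numbered by experiment. Each line is a single stable line, so the arrays of a group repeat 1 line, and BRG1 cannot be told apart from other differences between these lines. The groups are called vector mock, vector UV, BRG1 mock and BRG1 UV below, and signals are given in that order, experiments 1, 2 and 3 within each. Differences between the lines are log2 fold changes of SW13+BRG1 over SW13+vector with limma's standard error (SE, n = 3 arrays per group), negative where SW13+BRG1 was lower, and the value in mock-treated cells is given before that after UV. A transcript passed the test at an adjusted p under 0.05. Signals are scaled to the array, and those of different probe sets are not comparable with each other.

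DNA replication starts in G1 phase, when the origin recognition complex, CDC6 and CDT1 load the ring-shaped MCM helicase onto DNA in an inactive form. At the entry into S phase the kinase pairs CDC7 with DBF4 and cyclin E with CDK2 turn the loaded rings into running helicases with CDC45 and the GINS complex. Most of these genes are transcribed late in G1 phase under E2F factors, which the retinoblastoma protein holds back until cyclin-CDK complexes phosphorylate it. RNA was taken from whole cultures, so fewer cells in late G1 and S phase cannot be told apart from less of the same RNA in each cell.

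An E2F motif lay in the 250 bases before the start site of 16 of the 47 members that had a promoter in the RefSeq table (34%), against 4.31% of 11085 promoters of tested genes and 2.79% of 27305 promoters in all. The letters searched on both strands were TTTCCCGC, TTTCGCGC, TTTGCCGC and TTTGGCGC. Matches were counted where they overlapped each other too, and GGGCGG can share bases with an E2F match. The pentamer CCAAT lay in 26 of the 47 (55.3%, against 35% and 33%), and GGGCGG, the core of a GC box, in 33 (70.2%, against 64.5% and 42.3%). Only the E2F letters given above were searched, so a promoter without a match can hold other forms of the motif. Motifs in promoters are a description of sequence, and binding was not measured. The following windows are the 150 bases before the RefSeq start site (GRCh38.p14), with the E2F letters in capitals. MCM6, CDT1, GINS2, RFC3, TYMS, E2F2, CDC25A and PCNA are shown to give the place of the letters in members of several roles, ORC1, CDC6 and MCM10 as strongly lower members with no match in the 250 bases, and POLD4 as the member that was highest in SW13+BRG1 relative to SW13+vector.
MCM6: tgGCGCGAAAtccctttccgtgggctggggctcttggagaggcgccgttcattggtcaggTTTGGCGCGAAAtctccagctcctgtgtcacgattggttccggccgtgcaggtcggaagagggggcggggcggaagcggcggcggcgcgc
CDT1: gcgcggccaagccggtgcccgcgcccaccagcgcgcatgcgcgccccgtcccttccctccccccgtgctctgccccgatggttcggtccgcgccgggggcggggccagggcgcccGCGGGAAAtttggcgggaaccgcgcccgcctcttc
GINS2: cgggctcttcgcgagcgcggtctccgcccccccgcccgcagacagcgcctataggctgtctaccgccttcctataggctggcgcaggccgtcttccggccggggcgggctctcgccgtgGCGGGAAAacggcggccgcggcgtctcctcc
RFC3: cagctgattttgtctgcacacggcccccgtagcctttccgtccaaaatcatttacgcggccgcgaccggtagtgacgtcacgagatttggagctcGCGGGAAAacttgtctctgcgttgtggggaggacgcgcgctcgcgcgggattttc
TYMS: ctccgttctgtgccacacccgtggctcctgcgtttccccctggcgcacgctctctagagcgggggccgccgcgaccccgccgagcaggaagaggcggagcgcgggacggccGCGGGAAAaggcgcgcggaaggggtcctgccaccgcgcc
E2F2: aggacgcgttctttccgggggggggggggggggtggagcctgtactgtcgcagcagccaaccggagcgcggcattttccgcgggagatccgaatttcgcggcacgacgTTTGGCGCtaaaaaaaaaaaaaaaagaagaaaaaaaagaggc
CDC25A: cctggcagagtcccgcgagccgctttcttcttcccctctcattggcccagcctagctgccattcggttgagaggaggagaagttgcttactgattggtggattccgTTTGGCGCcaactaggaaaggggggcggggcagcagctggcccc
PCNA: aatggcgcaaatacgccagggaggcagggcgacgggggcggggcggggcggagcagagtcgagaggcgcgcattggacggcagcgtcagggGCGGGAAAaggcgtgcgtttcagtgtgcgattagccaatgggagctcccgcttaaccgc
ORC1: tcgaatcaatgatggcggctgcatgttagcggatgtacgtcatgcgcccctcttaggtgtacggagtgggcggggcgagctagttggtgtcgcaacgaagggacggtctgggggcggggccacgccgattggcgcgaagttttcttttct
CDC6: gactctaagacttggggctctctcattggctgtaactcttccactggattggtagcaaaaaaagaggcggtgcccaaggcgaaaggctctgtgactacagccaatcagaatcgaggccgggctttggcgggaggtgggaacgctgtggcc
MCM10: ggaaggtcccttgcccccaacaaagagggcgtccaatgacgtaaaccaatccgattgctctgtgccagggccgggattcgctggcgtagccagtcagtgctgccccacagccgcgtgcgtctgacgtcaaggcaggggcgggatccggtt
POLD4: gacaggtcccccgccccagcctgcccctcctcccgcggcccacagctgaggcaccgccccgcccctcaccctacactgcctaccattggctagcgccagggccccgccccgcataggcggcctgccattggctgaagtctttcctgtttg
MCM6 had the most matches, 4 in the longer window, whose nearer ends lie 145, 141, 83 and 79 bases before the start in 2 overlapping pairs, the first of them cut off by the printed window. The windows lie at chr2:135876444-135876593 on the minus strand for MCM6, chr16:88803639-88803788 on the plus strand for CDT1, chr16:85688955-85689104 on the minus strand for GINS2, chr13:33817999-33818148 on the plus strand for RFC3, chr18:657503-657652 on the plus strand for TYMS, chr1:23531234-23531383 on the minus strand for E2F2, chr3:48188418-48188567 on the minus strand for CDC25A, chr20:5126623-5126772 on the minus strand for PCNA, chr1:52404424-52404573 on the minus strand for ORC1, chr17:40287729-40287878 on the plus strand for CDC6, chr10:13161408-13161557 on the plus strand for MCM10 and chr11:67353597-67353746 on the minus strand for POLD4. The windows of ORC1, CDC6, MCM10 and POLD4 hold none of the E2F letters searched. That of CDC6 holds tttggcgg, which differs from a searched form in its last letter and was not counted. The ORC1 window holds attggcgc, which differs from a searched form in its first letter and was not counted either. PCNA, with a small difference between the lines, has the searched letters, as do CDC25A and E2F2 with large differences.

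Array medians of all probe sets were 21.1 to 25.3, and log2 signals of tested probe sets correlated at 0.894 to 0.949 within groups and 0.763 to 0.915 between groups. SMARCA4, the gene that was introduced, did not follow the labels. Its brightest probe set read 314, 383 and 920.1 on vector mock, 423, 451 and 686 on vector UV, 143, 161 and 336 on BRG1 mock, and 171, 176 and 343 on BRG1 UV arrays, lower in the arrays labelled SW13+BRG1 in both treatments. The log2 fold change was -1.28 (SE 0.42, adjusted p = 0.035) in mock-treated and -1.22 (SE 0.42, adjusted p = 0.040) in UV-treated cells. With p adjusted over all tested probe sets instead of genes, 2 of its 7 tested probe sets were lower and 0 higher in mock-treated cells. After UV 1 was lower, a different one from the brightest, which then had an adjusted p of 0.051, and 1 was higher, by 2.20 on the log2 scale. Where these probe sets lie relative to the introduced cDNA was not analysed here. The study also examined BRG1 protein by Western blot and the transcripts CD44 and DLC1 by RT-PCR in these lines, and those measurements were not analysed here. On the arrays CD44 was 2.19 to 23.7 in SW13+vector and 2583 to 3378 in SW13+BRG1, and DLC1 was 27.3 to 70.2 and 2349 to 4887, both far higher on every array labelled SW13+BRG1. SW13+BRG1 below means the arrays labelled so. SMARCA2, the related ATPase BRM, read 12.4, 11.3 and 20.1 on vector mock, 18.0, 23.4 and 8.68 on vector UV, 19.9, 26.6 and 5.56 on BRG1 mock, and 28.1, 21.8 and 5.51 on BRG1 UV arrays, and both lines were low on this probe set. The adrenal label was likewise not visible in the markers. Of 10 adrenal cortex markers 9 had a probe set and 3 were tested, their summed signal was 94.9 to 184.9 over the arrays, and NR5A1, STAR and CYP11A1 stayed under 41 on every array. Summed signals of blood cell markers (4 of 5 with a probe set, 2 tested) were 125.4 to 212.9 in SW13+vector and 45.3 to 95.8 in SW13+BRG1, with PTPRC at group means of 118.2 to 122.9 and 6.77 to 7.07. Those of stromal markers (6 of 6, 4 tested) were 1226 to 2131, mostly COL3A1, and those of endothelial markers (4 of 4, 1 tested) 39.9 to 87.2. The part of these differences in the results was not tested.

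The arrays numbered 3 stood apart for the replication genes. On them 49 of the 55 members had their highest BRG1 mock signal and 43 their highest BRG1 UV signal, against 45.2% and 39.7% of all tested genes, and 35 and 34 members did so among vector mock and vector UV arrays, against 45.4% and 40.6%. Relative to the other 2 arrays of the group, the median member was higher on array 3 by 0.61 in BRG1 mock and 0.45 in BRG1 UV on the log2 scale, and by 0.21 and 0.13 in the SW13+vector groups, whereas the median of all tested genes was higher by at most 0.06. The ratio of the 3′ to the 5′ GAPDH control probe sets was also highest on array 3 in each group, 1.64 in vector mock, 1.25 in vector UV, 1.12 in BRG1 mock and 1.05 in BRG1 UV, against 0.932 to 1.07 on the arrays numbered 1 and 2. The same ratio for ACTB was highest on array 3 in vector mock (2.57), vector UV (1.59) and BRG1 mock (1.54), and lowest on it in BRG1 UV (1.45, against 1.46 and 1.62). Their part in the results was not tested. The counts over the 55 members at an adjusted p under 0.05 are therefore also given below without the 4 arrays numbered 3, a choice made after the data had been seen. Counts by fold, by overlap of signals or at an unadjusted p are given with all arrays only.

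**Figure D1:**
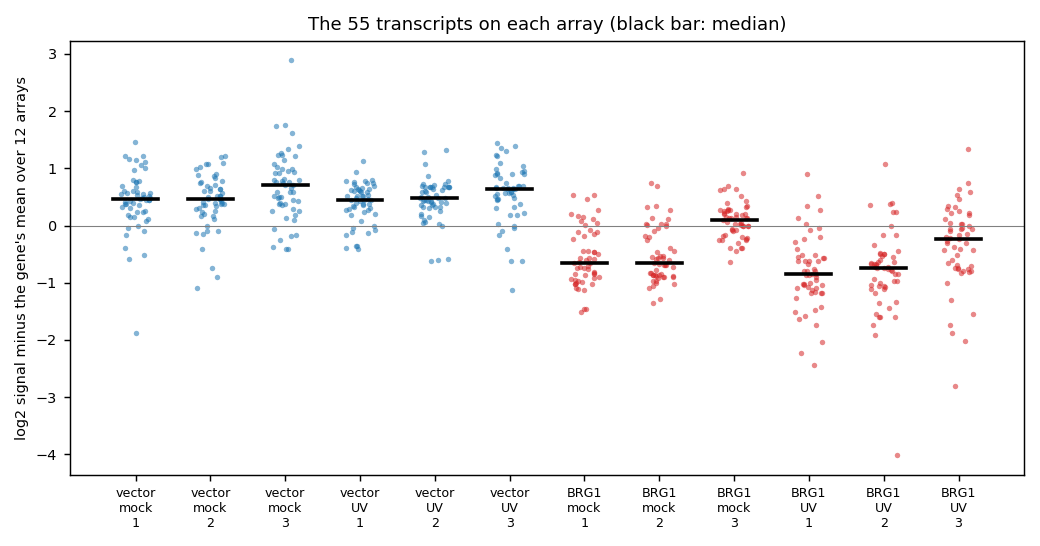
Each point is 1 of the 55 transcripts on 1 array, as log2 signal minus the mean of that transcript over the 12 arrays, and the black bar is the median of the 55. Medians were 0.45 to 0.71 on the SW13+vector arrays and -0.85 to 0.10 on the SW13+BRG1 arrays, with array 3 the highest of each group.

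In mock-treated cells, where the question is what differs between the lines without damage, most of the replication genes were lower in SW13+BRG1. Of the 55 members 39 passed the test lower, against 13.2% of all tested genes, and 2 higher, against 15.3%. Over 2-fold, 26 were lower (5.27% of all genes) and 1 was higher (9.38%). The median log2 fold change was -0.94 for the members and 0.00 for all tested genes, and 50 of the 55 lay below 0. Signals of the groups did not overlap for 42 members that were lower, against 19.7% of all tested genes, and for 2 that were higher, against 21.6%. Within experiments 1, 2 and 3 taken singly, 51, 51 and 46 members lay below 0, with medians of -1.20, -1.07 and -0.69, against 48.7% to 51.3% of all genes below 0. With the experiment number as a block, 41 members were lower and 3 higher, the additional ones being CDT1 and RRM2 lower and POLD2 higher. For this and the later counts with a block, the share of all tested genes is not given here.

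After UV most members were again lower in SW13+BRG1. Of the 55 members 43 passed lower, against 15.5% of all tested genes, and 3 higher, against 16.4%. Over 2-fold, 32 were lower (6.86%) and 1 was higher (9.85%), and the median was -1.15 for the members and -0.02 for all genes. Signals did not overlap for 44 lower members, against 22.4% of all tested genes, and 3 higher members, against 23%. Within the 3 experiments 50, 50 and 49 members lay below 0, against 51.4%, 48.8% and 51.3% of all genes. With the experiment number as a block, 48 members were lower and 3 higher, POLD1, POLE, PCNA, RFC5 and RRM2 being the additional ones. Without the arrays numbered 3, 45 members were lower and 3 higher in mock-treated cells, beside 19.4% and 21.7% of all genes, and 49 and 4 after UV, beside 21.4% and 22.4%. All 41 and 46 calls with the full set of arrays were kept. Of those, 30 and 35 stayed past the test whichever single array was left out.

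**Figure D2:**
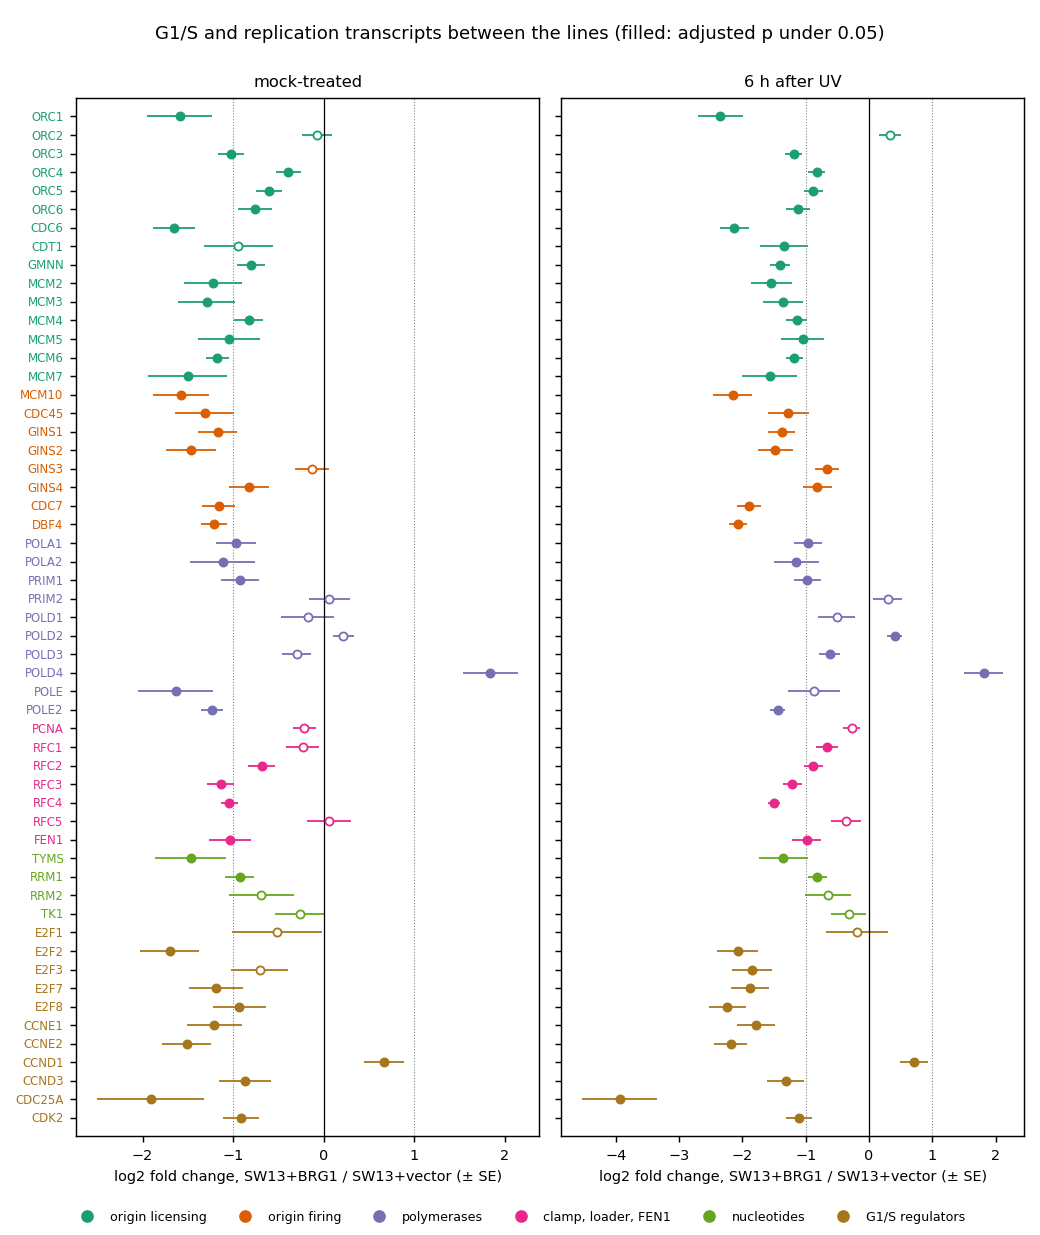
Log2 fold change of SW13+BRG1 over SW13+vector with its standard error for each of the 55 transcripts, mock-treated on the left and 6 h after UV on the right on a wider axis, coloured by role, with filled points at an adjusted p under 0.05 and dotted lines at a fold of 2. Most points lie left of 0 in both panels, CDC25A reaches -3.94 after UV, and POLD4 lies at 1.84 and 1.81.

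Of the 15 licensing genes 13 were lower in mock-treated SW13+BRG1 cells and 14 after UV, with medians of -1.02 and -1.19 on the log2 scale. ORC1, the subunit of the origin recognition complex whose level varies through the cell cycle, read 204, 222 and 283 on vector mock, 199, 253 and 277 on vector UV, 55.9, 65.6 and 128 on BRG1 mock, and 29.2, 47.2 and 76.1 on BRG1 UV arrays. CDC6, the loader ATPase that joins it at origins, read 621, 613 and 611 on vector mock, 595, 561 and 582 on vector UV, 153, 167 and 293 on BRG1 mock, and 108, 120.5 and 178 on BRG1 UV arrays. All 3 vector arrays lay above all 3 BRG1 arrays for both genes in each treatment. The difference in ORC1 was -1.59 (SE 0.36, adjusted p = 0.0043) in mock-treated cells and -2.35 (SE 0.36, adjusted p = 0.00021) after UV, and in CDC6 it was -1.65 (SE 0.23, adjusted p = 0.00014) and -2.13 (SE 0.23, adjusted p = 1.4e-05).

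The other subunits of the origin complex bind origins together with ORC1. ORC3 read 979.8, 978 and 1043 on vector mock, 1262, 1205 and 1183 on vector UV, 427, 508 and 549 on BRG1 mock, and 489.5, 470.4 and 655 on BRG1 UV arrays, and ORC6 read 746, 652 and 985 on vector mock, 782, 757 and 838 on vector UV, 515, 357 and 538 on BRG1 mock, and 329, 343 and 427 on BRG1 UV arrays. Neither overlapped between the lines, with differences of -1.02 (SE 0.14, adjusted p = 0.0001) and -1.19 (SE 0.14, adjusted p = 2.4e-05) for ORC3 and -0.76 (SE 0.19, adjusted p = 0.0074) and -1.12 (SE 0.19, adjusted p = 0.00042) for ORC6. ORC5 read 731, 864 and 865 on vector mock, 515, 582 and 758 on vector UV, 504, 549 and 565 on BRG1 mock, and 321, 350.6 and 325 on BRG1 UV arrays, and ORC4 read 811, 877 and 727 on vector mock, 677, 741 and 604 on vector UV, 669, 653 and 525 on BRG1 mock, and 388, 408 and 343 on BRG1 UV arrays. ORC5 differed by -0.60 (SE 0.15, adjusted p = 0.0069) and -0.88 (SE 0.15, adjusted p = 0.00042). ORC4 differed by -0.39 (SE 0.14, adjusted p = 0.048) and -0.83 (SE 0.14, adjusted p = 0.00043), and its mock call was lost when any array other than vector mock 3, vector UV 3 and BRG1 UV 3 was left out. ORC2 was the licensing gene that passed in neither treatment, at -0.08 (SE 0.17, adjusted p = 0.79) and 0.33 (SE 0.17, adjusted p = 0.16). Its signals were 279, 262 and 232 on vector mock, 152, 129 and 127 on vector UV, 271, 247 and 217 on BRG1 mock, and 170.2, 195 and 149.7 on BRG1 UV arrays, higher on all mock arrays than on any UV array of either line.

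CDT1, which brings the MCM ring to origins, read 444, 478 and 490.3 on vector mock, 402, 401 and 408 on vector UV, 249.9, 159 and 372 on BRG1 mock, and 94.5, 130.03 and 332 on BRG1 UV arrays. Its mock difference of -0.94 (SE 0.38, adjusted p = 0.083) missed the threshold although the groups did not overlap, and passed with the experiment number as a block (adjusted p = 0.02). After UV it was -1.34 (SE 0.38, adjusted p = 0.015), a call lost without BRG1 UV array 1 or 2, the lower ones. GMNN encodes geminin, the inhibitor of CDT1, and read 2182, 2056 and 2169 on vector mock, 2024, 2041 and 2261 on vector UV, 1044, 1058 and 1653 on BRG1 mock, and 750.4, 758 and 881 on BRG1 UV arrays. Geminin and the factor it inhibits were both lower after UV, and GMNN differed by -0.80 (SE 0.15, adjusted p = 0.0015) and -1.41 (SE 0.15, adjusted p = 1.4e-05).

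All 6 subunits of the MCM2 to MCM7 helicase were lower in SW13+BRG1 in both treatments. MCM6 read 2773, 2784 and 2764 on vector mock, 3153, 3117 and 3039 on vector UV, 1162, 1076 and 1486 on BRG1 mock, and 1266, 1260.0 and 1615 on BRG1 UV arrays. Its groups lay far apart, with -1.17 (SE 0.13, adjusted p = 1.4e-05) and -1.18 (SE 0.13, adjusted p = 1.3e-05). MCM2 read 855, 835 and 1018 on vector mock, 932, 885 and 1151 on vector UV, 307, 289.5 and 649 on BRG1 mock, and 242, 282 and 561 on BRG1 UV arrays. MCM3 read 973, 1003 and 1275 on vector mock, 1000.4, 997 and 1074 on vector UV, 328, 338 and 766 on BRG1 mock, and 326, 306 and 631 on BRG1 UV arrays. Array 3 was the highest of the BRG1 arrays for both, and the differences were -1.22 (SE 0.32, adjusted p = 0.011) and -1.54 (SE 0.32, adjusted p = 0.0022) for MCM2 and -1.29 (SE 0.31, adjusted p = 0.0069) and -1.36 (SE 0.31, adjusted p = 0.0044) for MCM3.

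MCM4 read 743, 599.9 and 577 on vector mock, 872, 739 and 827 on vector UV, 312, 338 and 437 on BRG1 mock, and 358, 321 and 432 on BRG1 UV arrays and differed by -0.83 (SE 0.16, adjusted p = 0.0018) and -1.14 (SE 0.16, adjusted p = 0.00013). MCM5 read 453, 488 and 805 on vector mock, 549, 531 and 782 on vector UV, 200.1, 217 and 466 on BRG1 mock, and 226, 258 and 443 on BRG1 UV arrays, which overlapped between the lines in mock-treated cells through BRG1 array 3. MCM7 read 1513, 1592 and 2714 on vector mock, 1861, 2089 and 3196 on vector UV, 447, 479.8 and 1347 on BRG1 mock, and 571, 569.7 and 1461 on BRG1 UV arrays, with array 3 the highest of each group. MCM5 differed by -1.05 (SE 0.34, adjusted p = 0.034) and -1.05 (SE 0.34, adjusted p = 0.031) and MCM7 by -1.50 (SE 0.44, adjusted p = 0.02) and -1.57 (SE 0.44, adjusted p = 0.014). The mock calls of MCM2, MCM5 and MCM7 were lost without BRG1 mock array 1 or 2 (and of MCM5 without vector mock array 2 or 3, of MCM7 without vector mock array 3), and the UV calls of MCM5 and MCM7 without BRG1 UV array 1 or 2 or vector UV array 3 (and of MCM5 without vector UV array 1).

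Of the 8 firing genes 7 were lower in mock-treated cells and all 8 after UV. MCM10, a scaffold of the firing helicase, read 534, 556 and 656 on vector mock, 409, 434 and 582 on vector UV, 151, 149 and 331 on BRG1 mock, and 91.5, 81.9 and 156 on BRG1 UV arrays and differed by -1.57 (SE 0.31, adjusted p = 0.0017) and -2.16 (SE 0.31, adjusted p = 0.00013). CDC45, which completes the helicase together with GINS, read 183, 209.9 and 292 on vector mock, 216, 163 and 254 on vector UV, 63.1, 73.6 and 158 on BRG1 mock, and 66.9, 97.9 and 96.6 on BRG1 UV arrays. It showed no overlap between the lines, with -1.31 (SE 0.33, adjusted p = 0.0082) and -1.27 (SE 0.33, adjusted p = 0.0088).

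The 4 GINS subunits were not alike. GINS1 read 994, 979 and 973 on vector mock, 779, 794 and 841 on vector UV, 376, 355 and 622 on BRG1 mock, and 256, 269 and 426 on BRG1 UV arrays, and GINS2 read 1051, 1001 and 1332 on vector mock, 1229, 1119 and 1357 on vector UV, 330.4, 340.3 and 594 on BRG1 mock, and 348, 341 and 725 on BRG1 UV arrays. Both were lower in each BRG1 group, GINS1 by -1.17 (SE 0.22, adjusted p = 0.0011) and -1.38 (SE 0.22, adjusted p = 0.00027) and GINS2 by -1.46 (SE 0.28, adjusted p = 0.0014) and -1.48 (SE 0.28, adjusted p = 0.0011). GINS4 read 379.9, 393 and 272 on vector mock, 549, 536 and 521 on vector UV, 165, 181 and 245 on BRG1 mock, and 306, 224 and 409 on BRG1 UV arrays, with -0.83 (SE 0.22, adjusted p = 0.014) and -0.82 (SE 0.22, adjusted p = 0.013), a mock call lost without array 1 or 2 of either mock group and a UV call lost without BRG1 UV array 2. GINS3 read 133.3, 132 and 155 on vector mock, 143, 133.1 and 118 on vector UV, 128, 117 and 140.4 on BRG1 mock, and 82.6, 71.7 and 94.9 on BRG1 UV arrays. It overlapped between the lines in mock-treated cells, at -0.13 (SE 0.19, adjusted p = 0.68), and was lower after UV, at -0.67 (SE 0.19, adjusted p = 0.014), a call lost without vector UV array 1 or BRG1 UV array 2.

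CDC7 and DBF4 form the kinase that phosphorylates the loaded MCM ring. CDC7 read 564, 466 and 629 on vector mock, 287, 335 and 369.9 on vector UV, 232, 233 and 275 on BRG1 mock, and 111, 82.9 and 74.99 on BRG1 UV arrays. DBF4 read 1269, 985 and 1210.1 on vector mock, 585, 622 and 526 on vector UV, 467, 469 and 563 on BRG1 mock, and 137, 152 and 125 on BRG1 UV arrays. In both genes the 4 groups lay in the same order, vector mock highest and BRG1 UV lowest, although BRG1 mock and vector UV overlapped for DBF4 and were separate for CDC7. The line differences were -1.16 (SE 0.18, adjusted p = 0.00036) and -1.90 (SE 0.18, adjusted p = 5.0e-06) for CDC7 and -1.21 (SE 0.14, adjusted p = 3.1e-05) and -2.06 (SE 0.14, adjusted p = 2.0e-07) for DBF4.

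The polymerase subunits went different ways, with 5 of 10 lower and 1 higher in mock-treated cells and 5 lower and 2 higher after UV. POLE, the catalytic subunit of the leading strand polymerase, read 175, 179.9 and 389.9 on vector mock, 90.0, 133.2 and 216 on vector UV, 60.0, 56.9 and 119.7 on BRG1 mock, and 52.9, 81.3 and 99.7 on BRG1 UV arrays. Its accessory subunit POLE2 read 1231, 1201 and 1067 on vector mock, 1096, 1107 and 1122 on vector UV, 479, 441 and 576 on BRG1 mock, and 394, 399 and 429 on BRG1 UV arrays. POLE2 differed by -1.23 (SE 0.12, adjusted p = 4.9e-06) and -1.45 (SE 0.12, adjusted p = 1.1e-06), with a small spread, while POLE passed in mock-treated cells at -1.64 (SE 0.41, adjusted p = 0.0087) and did not pass after UV at -0.86 (SE 0.41, adjusted p = 0.13), where its groups overlapped. With the experiment number as a block the latter had an adjusted p of 0.0028.

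The polymerase alpha and primase complex makes the primers. POLA2 read 418, 403 and 587 on vector mock, 394, 413 and 544 on vector UV, 159, 168 and 364 on BRG1 mock, and 146, 156 and 355 on BRG1 UV arrays, and PRIM1, its primase catalytic subunit, read 698, 663 and 685 on vector mock, 656, 709 and 790.4 on vector UV, 301, 303 and 506 on BRG1 mock, and 317, 315 and 484 on BRG1 UV arrays. Both were lower on all BRG1 arrays of a treatment, POLA2 by -1.12 (SE 0.36, adjusted p = 0.031) and -1.15 (SE 0.36, adjusted p = 0.024) and PRIM1 by -0.93 (SE 0.21, adjusted p = 0.0046) and -0.98 (SE 0.21, adjusted p = 0.0029). The POLA2 calls were lost without BRG1 array 1 or 2 or array 2 or 3 of SW13+vector in the same treatment, and the mock call also without vector mock array 1. Averaged over its tested probe sets, POLA2 was at -0.64 after UV and did not pass. POLA1, the catalytic subunit, was lower, at -0.97 (SE 0.22, adjusted p = 0.0051) and -0.97 (SE 0.22, adjusted p = 0.0045). PRIM2, the other primase subunit, differed by 0.06 (SE 0.23, adjusted p = 0.88) and 0.30 (SE 0.23, adjusted p = 0.37).

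Polymerase delta, the lagging strand enzyme, had members in both directions. POLD4, its smallest subunit, read 67.3, 116 and 189 on vector mock, 186, 162 and 113 on vector UV, 355, 414 and 465 on BRG1 mock, and 458, 517 and 621 on BRG1 UV arrays. It was higher on every BRG1 array than on any vector array, by 1.84 (SE 0.31, adjusted p = 0.00052) in mock-treated cells and 1.81 (SE 0.31, adjusted p = 0.00053) after UV. POLD2 read 730.4, 726 and 845 on vector mock, 882, 957 and 1093 on vector UV, 843, 849.9 and 985 on BRG1 mock, and 1218, 1264 and 1395 on BRG1 UV arrays, and was at 0.22 (SE 0.12, adjusted p = 0.21) in mock-treated cells and 0.41 (SE 0.12, adjusted p = 0.019) after UV. The second is a call lost without vector UV array 1 or 2 or BRG1 UV array 3, and with the arrays scaled to hybridization controls it was 0.26. POLD3 read 369.9, 388 and 405 on vector mock, 221, 252 and 188 on vector UV, 284, 312 and 353 on BRG1 mock, and 124, 164 and 140.2 on BRG1 UV arrays. It overlapped between the lines in neither treatment, at -0.30 (SE 0.16, adjusted p = 0.2) and -0.62 (SE 0.16, adjusted p = 0.0099), the latter lost without vector UV array 2. POLD1, the catalytic subunit, passed in neither, at -0.18 (SE 0.29, adjusted p = 0.72) and -0.51 (SE 0.29, adjusted p = 0.22).

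Of the 7 genes for the clamp, its loader and flap removal 4 were lower in mock-treated cells and 5 after UV. PCNA, the sliding clamp, read 2283, 2297 and 2337 on vector mock, 2979, 3058 and 3149 on vector UV, 1762, 1854 and 2417 on BRG1 mock, and 2482, 2183 and 2974 on BRG1 UV arrays. It overlapped between the lines in mock-treated cells and differed by -0.21 (SE 0.13, adjusted p = 0.26) and -0.28 (SE 0.13, adjusted p = 0.13), neither of which passed. Without the arrays numbered 3 PCNA was lower in both treatments, at -0.34 (adjusted p = 0.0017) and -0.37 (adjusted p = 0.00081), and with the experiment number as a block it passed after UV (adjusted p = 0.022). RFC4, a small subunit of the clamp loader, read 4722, 4799 and 4448 on vector mock, 4642, 4800.3 and 4280.2 on vector UV, 2174, 2141 and 2476 on BRG1 mock, and 1584, 1519.8 and 1746 on BRG1 UV arrays. RFC4 was close to the same on the arrays of a group and differed by -1.04 (SE 0.09, adjusted p = 2.2e-06) and -1.50 (SE 0.09, adjusted p = 7.3e-08).

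RFC3 read 860.3, 901 and 748 on vector mock, 757, 747 and 796 on vector UV, 339, 358 and 451 on BRG1 mock, and 295, 309 and 397 on BRG1 UV arrays, and RFC2 read 741, 867 and 727 on vector mock, 1072, 907 and 1151 on vector UV, 461, 424 and 575 on BRG1 mock, and 578, 504 and 614 on BRG1 UV arrays. These small loader subunits did not overlap between the lines, with -1.14 (SE 0.15, adjusted p = 8.0e-05) and -1.21 (SE 0.15, adjusted p = 4.0e-05) for RFC3 and -0.69 (SE 0.15, adjusted p = 0.0031) and -0.88 (SE 0.15, adjusted p = 0.00042) for RFC2. RFC1, the large subunit, differed by -0.23 (SE 0.18, adjusted p = 0.39) and -0.66 (SE 0.18, adjusted p = 0.012), the latter lost without vector UV array 3 or BRG1 UV array 1 or 2. RFC5 read 508, 418 and 345 on vector mock, 655, 622 and 430.2 on vector UV, 507, 469.9 and 348 on BRG1 mock, and 504, 540.1 and 302 on BRG1 UV arrays on its brightest probe set, with 0.06 (SE 0.24, adjusted p = 0.89) and -0.36 (SE 0.24, adjusted p = 0.29). Its other 2 probe sets were lower in SW13+BRG1, at -1.04 (SE 0.20) and -0.80 (SE 0.22) in mock-treated cells and at -1.14 and -1.31 after UV, with adjusted p over probe sets of 0.00079 to 0.021. FEN1, the nuclease that trims Okazaki fragments, read 1561, 1598 and 2342 on vector mock, 1690.2, 1605 and 1941 on vector UV, 733, 792 and 1163 on BRG1 mock, and 718, 749 and 1264 on BRG1 UV arrays and was lower, at -1.04 (SE 0.23, adjusted p = 0.0042) and -0.98 (SE 0.23, adjusted p = 0.0053).

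Of the 4 nucleotide supply genes 2 were lower in both treatments. TYMS, which makes thymidylate, read 3967, 3966 and 5006 on vector mock, 4799, 4709.5 and 5927 on vector UV, 1001, 1178 and 3148 on BRG1 mock, and 1393, 1594 and 3585 on BRG1 UV arrays. BRG1 array 3 lay well above BRG1 arrays 1 and 2, and the differences were -1.47 (SE 0.39, adjusted p = 0.011) and -1.36 (SE 0.39, adjusted p = 0.016), calls lost without BRG1 array 1 or 2 of the same treatment, and the UV call also without vector UV array 3. The ribonucleotide reductase subunit RRM1 read 2126, 1934 and 2691 on vector mock, 2041, 2051 and 1973 on vector UV, 999.8, 1068 and 1505 on BRG1 mock, and 1063, 1123 and 1268 on BRG1 UV arrays, and its partner RRM2 read 3333, 3599 and 4320.1 on vector mock, 4181, 4124 and 6232 on vector UV, 1672, 1703 and 4367 on BRG1 mock, and 2246, 2376 and 5171 on BRG1 UV arrays. RRM1 was lower, at -0.93 (SE 0.16, adjusted p = 0.00055) and -0.82 (SE 0.16, adjusted p = 0.0013). On its brightest probe set RRM2 had a similar shift on arrays 1 and 2 but overlapped through array 3, at -0.69 (SE 0.36, adjusted p = 0.19) and -0.65 (SE 0.36, adjusted p = 0.2), and TK1, the thymidine salvage kinase, was at -0.26 (SE 0.28, adjusted p = 0.55) and -0.32 (SE 0.28, adjusted p = 0.42). Without the arrays numbered 3, RRM2 was lower, at -1.04 and -0.85 and TK1 was at -0.61 and -0.63, all past the test. With the experiment number as a block RRM2 also passed in both treatments (adjusted p = 0.0051 and 0.0063). The second tested probe set of RRM2 read 3533, 3566 and 4677 on vector mock, 3704, 3689 and 4796 on vector UV, 1250.4, 1313 and 2766 on BRG1 mock, and 1467, 1422 and 2768 on BRG1 UV arrays. It did not overlap between the lines, at -1.23 (SE 0.30) and -1.17 (SE 0.30), with adjusted p over probe sets of 0.0089 and 0.011.

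**Figure D3:**
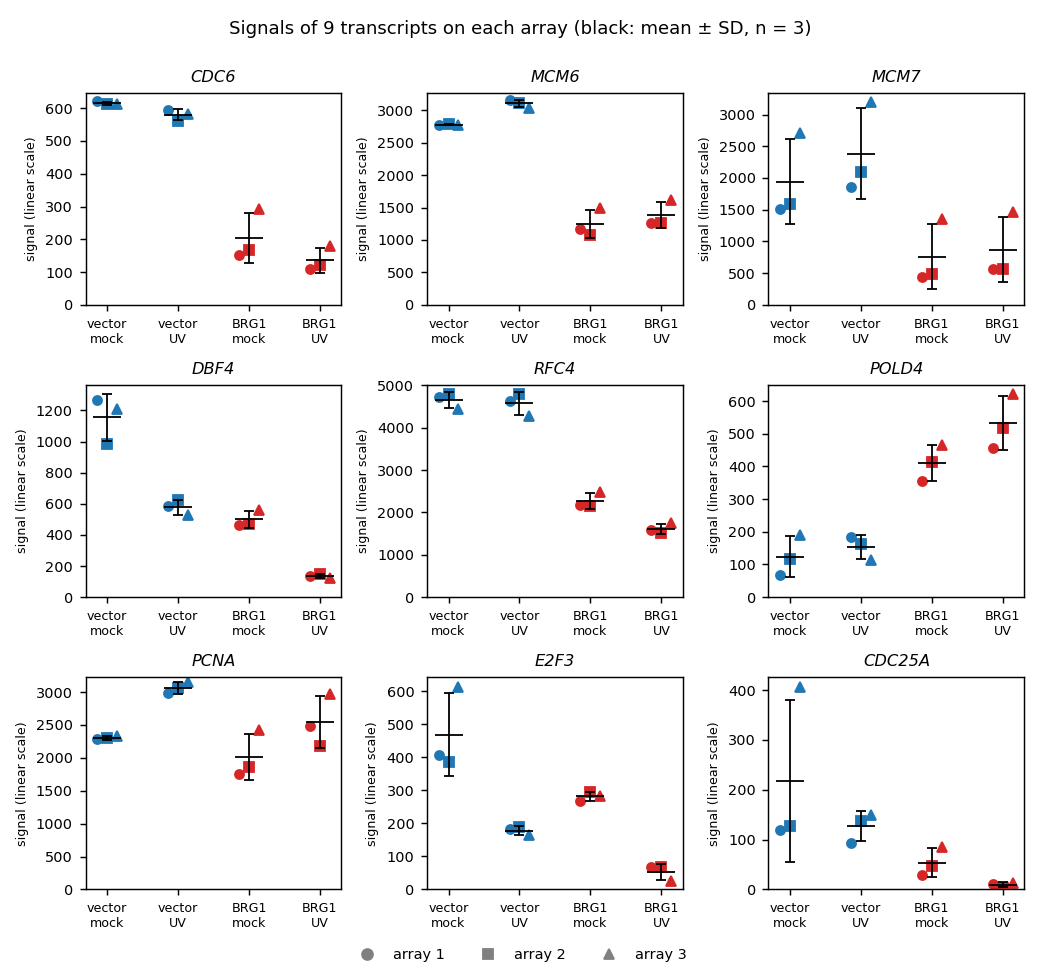
Signals on a linear scale of 9 transcripts on each of the 12 arrays, blue for SW13+vector and red for SW13+BRG1, with the shape giving the experiment number and the black mark the mean ± SD of 3 arrays. POLD4 lies higher in SW13+BRG1, PCNA lies near the same level in both lines, and DBF4, E2F3 and CDC25A are lowest in SW13+BRG1 after UV.

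Of the 11 regulators 8 were lower and 1 higher in mock-treated cells, and 9 were lower and 1 higher after UV, where their median reached -1.85. CDC25A, the phosphatase that activates CDK2, had the largest difference of all members after UV. It read 119, 128 and 406 on vector mock, 94.1, 138 and 150.01 on vector UV, 29.3, 46.2 and 85.6 on BRG1 mock, and 11.7, 3.41 and 13.6 on BRG1 UV arrays, and the BRG1 UV arrays lay below the median signal of their arrays. The difference was -1.91 (SE 0.59, adjusted p = 0.027) in mock-treated cells, a call lost without BRG1 mock array 1 or 2 or vector mock array 3, and -3.94 (SE 0.59, adjusted p = 0.00019) after UV. On its other 2 tested probe sets the difference after UV was -5.61 and -3.34. Their BRG1 UV signals were 19.3, 0.46 and 1.81 on the first and 3.70, 4.78 and 26.1 on the second. The sizes of these differences therefore rest on low signals. With 16 added to each signal before log2 the difference of the brightest probe set was -2.49.

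The cyclin E genes encode the partners of CDK2. CCNE1 read 233, 269 and 453 on vector mock, 294, 313 and 483 on vector UV, 109.9, 105 and 199.96 on BRG1 mock, and 91.5, 97.0 and 122 on BRG1 UV arrays, and CCNE2 read 256, 256 and 156 on vector mock, 267, 298 and 191 on vector UV, 82.6, 67.9 and 78.0 on BRG1 mock, and 53.8, 41.8 and 71.7 on BRG1 UV arrays. CDK2 itself read 474, 486 and 404 on vector mock, 525, 588 and 697 on vector UV, 203, 213 and 321 on BRG1 mock, and 276, 227 and 344 on BRG1 UV arrays. None of the 3 overlapped between the lines within a treatment. The differences were -1.21 (SE 0.30, adjusted p = 0.0084) and -1.79 (SE 0.30, adjusted p = 0.00051) for CCNE1, -1.51 (SE 0.27, adjusted p = 0.00076) and -2.19 (SE 0.27, adjusted p = 3.5e-05) for CCNE2, and -0.91 (SE 0.20, adjusted p = 0.004) and -1.11 (SE 0.20, adjusted p = 0.0009) for CDK2. 

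D-type cyclins, which start the phosphorylation of the retinoblastoma protein, went opposite ways. CCND3 read 235, 293 and 444 on vector mock, 403, 419 and 615 on vector UV, 145, 147 and 234 on BRG1 mock, and 170.1, 151 and 260.2 on BRG1 UV arrays, and CCND1 read 406, 345 and 689 on vector mock, 442, 379 and 559 on vector UV, 699, 701 and 780.4 on BRG1 mock, and 825, 741 and 673 on BRG1 UV arrays. CCND3 was lower, at -0.87 (SE 0.29, adjusted p = 0.036) and -1.32 (SE 0.29, adjusted p = 0.003), whereas CCND1 was higher by 0.66 (SE 0.22, adjusted p = 0.038) and 0.71 (SE 0.22, adjusted p = 0.024). The mock call of CCND3 was lost without BRG1 mock array 1 or 2 or vector mock array 2 or 3. That of CCND1 was lost without any 1 BRG1 mock array, vector mock array 1 or 2, vector UV array 1 or BRG1 UV array 2, and its UV call without array 1 or 2 of either UV group.

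Among the E2F factors, E2F1, E2F2 and E2F3 are known as activators and E2F7 and E2F8 as repressors. E2F1 read 105, 53.6 and 142 on vector mock, 96.9, 166 and 159 on vector UV, 36.4, 46.9 and 161 on BRG1 mock, and 96.6, 118 and 150.2 on BRG1 UV arrays and overlapped between the lines, at -0.51 (SE 0.50, adjusted p = 0.5) and -0.19 (SE 0.50, adjusted p = 0.81). E2F2 read 179.7, 189 and 326 on vector mock, 151, 158 and 269 on vector UV, 53.2, 57.8 and 105 on BRG1 mock, and 46.7, 51.0 and 36.0 on BRG1 UV arrays, and differed by -1.70 (SE 0.33, adjusted p = 0.0016) and -2.08 (SE 0.33, adjusted p = 0.00029). Averaged over its tested probe sets E2F2 was at -0.90 after UV and did not pass. E2F7 read 185, 184 and 189 on vector mock, 84.3, 127 and 92.9 on vector UV, 56.5, 77.4 and 124 on BRG1 mock, and 28.7, 21.2 and 32.6 on BRG1 UV arrays, and E2F8 read 266, 209.8 and 233 on vector mock, 166, 177 and 164 on vector UV, 109, 124 and 139 on BRG1 mock, and 21.1, 38.1 and 57.0 on BRG1 UV arrays. Both repressors were lower on every BRG1 array than on any vector array of the same treatment, E2F7 by -1.19 (SE 0.30, adjusted p = 0.0081) and -1.88 (SE 0.30, adjusted p = 0.00027) and E2F8 by -0.93 (SE 0.29, adjusted p = 0.028) and -2.24 (SE 0.29, adjusted p = 6.2e-05). Averaged over its probe sets E2F7 was at -1.13 after UV. The mock call of E2F8 was lost without BRG1 mock array 1 or 2 or vector mock array 1 or 3. E2F3 read 408, 384 and 613 on vector mock, 182, 188 and 163 on vector UV, 267, 296 and 282 on BRG1 mock, and 68.4, 67.6 and 26.1 on BRG1 UV arrays. Its mock difference of -0.70 (SE 0.31, adjusted p = 0.12) missed the threshold without overlap of the groups, and its difference after UV was -1.85 (SE 0.31, adjusted p = 0.00053).

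Of the 32 members with more than 1 tested probe set, all probe sets had the same sign in 30 in mock-treated cells and in 31 after UV, and in no member did probe sets pass in opposite directions. For UV against mock the signs were the same in fewer members, 22 in SW13+vector and 17 in SW13+BRG1. All probe sets of a member passed alike in 8 and 14 members between the lines, and in 0 and 2 for UV against mock. Over all 98 tested probe sets of the members, 51 were lower and 3 higher in mock-treated cells and 66 and 3 after UV. The share over all 32622 tested probe sets is not given here, and the shares above are over genes. Members with the E2F letters had a median log2 fold change of -1.15 in mock-treated cells and -1.28 after UV, and the 31 without them -0.87 and -0.98, a description with no test. For UV against mock the medians with and without the letters were -0.06 and -0.03 in SW13+vector. In SW13+BRG1 they were -0.03 and -0.35, lower for the members without the letters.

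The medians of neighbouring gene lists lay below 0 as well, although most of the retinoblastoma and E2F genes and of the G2/M genes in mock-treated cells did not pass the test. Beside the counts that follow, 13.2% of all tested genes were lower and 15.3% higher in mock-treated cells, and 15.5% and 16.4% after UV. Of 33 tested genes from a wider list of replication and S phase genes, 18 were lower and 1 higher in mock-treated cells (median -0.62) and 22 and 1 after UV (median -0.63). The largest mock differences were in DSCC1, a subunit of an alternative clamp loader (-2.24, SE 0.18, and -2.06 after UV), the chromatin ATPase ATAD2 (-1.49, SE 0.26) and the nuclease-helicase DNA2 (-1.37, SE 0.24, and -2.05 after UV), and TICRR, needed for origin firing, was at -3.09 (SE 0.70) after UV. POLE4 was the gene that was higher, by 0.46 and 0.64. Of 16 genes of the retinoblastoma and E2F pathway 5 were lower and 0 higher in mock-treated cells (median -0.32), led by E2F5 (-1.95, SE 0.18) and LIN9 (-1.40, SE 0.37), and 6 and 1 after UV (median -0.63). Of 35 G2/M genes 17 and 18 were lower and none higher by this test in either treatment, with medians of -0.79 and -0.87, among them HMMR (-1.75, SE 0.14), BUB1B (-1.30, SE 0.34), CENPE (-1.29, SE 0.28) and MAD2L1 (-1.24, SE 0.19) in mock-treated cells. All 35 lay below 0 in both treatments, against 49.9% of all tested genes in mock-treated cells and 50.9% after UV.

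Fewer members passed the comparison of UV with mock, which asks what 6 h after irradiation changed in each line. In SW13+vector 5 of the 55 members fell, against 8.48% of all tested genes, and 0 rose, against 5.56%. Over 2-fold 1 fell (4.16% of all genes) and 0 rose (0.66%). The median log2 fold change was -0.02 for the members and 0.03 for all genes, and at an unadjusted p under 0.05 limma gave 7 lower and 4 higher members, against 14.8% and 12.7% of all genes. Signals of UV and mock arrays did not overlap for 11 members that were lower, against 17.3% of all tested genes, and 8 that were higher, against 15%, so these counts were near or below the background. With the experiment number as a block 9 members fell and 7 rose. The additional ones were ORC4, ORC5, POLE and E2F7 lower and GINS4, POLD1, POLD2, PCNA, RFC2, RFC5 and CCND3 higher. Without the share of all tested genes in that fit, these counts cannot be set against a background.

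In SW13+BRG1 14 members fell, against 11.8% of all tested genes, and 1 rose, against 8.03%. Over 2-fold 7 fell (6.57%) and 0 rose (0.609%), with a median of -0.14 for the members and 0.03 for all genes, and 18 and 3 members had an unadjusted p under 0.05, against 17.2% and 13.9% of all genes. The 5 genes that fell in SW13+vector, which were ORC2, CDC7, DBF4, POLD3 and E2F3, were among the 14. Signals did not overlap for 16 lower members, against 20% of all tested genes, and 1 higher member, against 17.3%. With the experiment number as a block 20 members fell and 3 rose, and ORC1, ORC6, CDC6, MCM10, GINS1 and POLE2 lower and GINS4 and PCNA higher were the additional ones. With the arrays scaled to 18 hybridization control probe sets, which moved the median of all tested genes to -0.36 in SW13+BRG1 and -0.23 in SW13+vector, 24 members fell and 0 rose in SW13+BRG1. The median of the members relative to that of all genes was -0.17 in SW13+BRG1 both with and without this scaling. The shares of all genes that passed under the block and under this scaling are not given here.

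These counts depended on the arrays numbered 3. Without them 11 members fell and 13 rose in SW13+vector, beside 14% and 14.7% of all genes, and 21 fell and 9 rose in SW13+BRG1, beside 16.5% and 16.6%. All 5 and 15 calls from the full set of arrays were kept. Members that rose in both lines in that fit, and in neither line with all arrays and no block, were MCM6 (0.17 in SW13+vector and 0.18 in SW13+BRG1), MCM7 (0.35 and 0.30), GINS4 (0.49 and 0.60), PCNA (0.40 and 0.37), TYMS (0.26 and 0.46), RRM2 (0.26 and 0.45) and TK1 (0.34 and 0.32). Of these, GINS4 and PCNA also rose in both lines with the experiment number as a block.

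**Figure D4:**
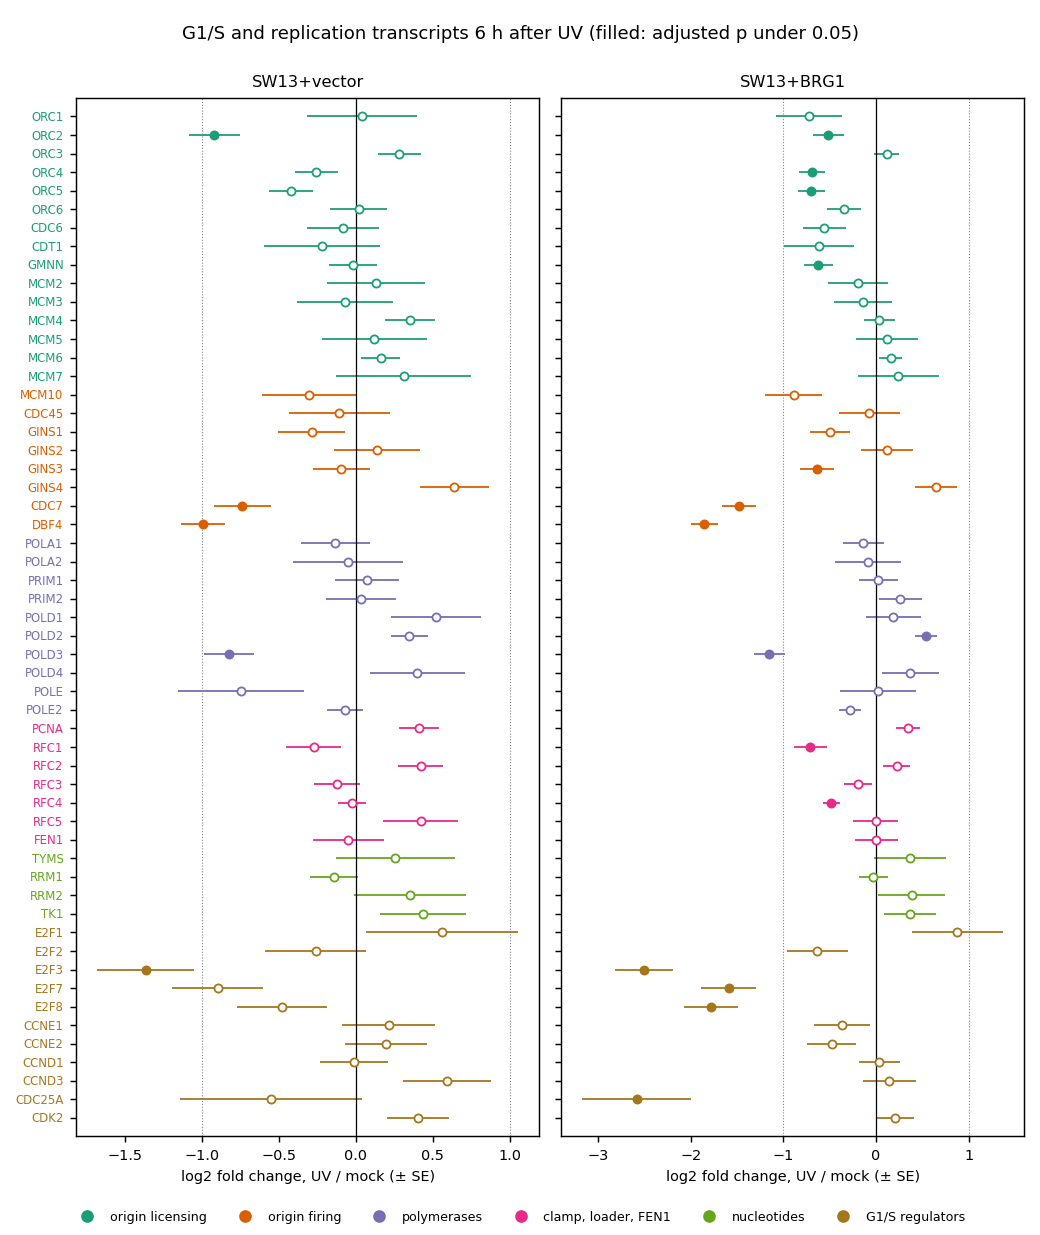
Log2 fold change of UV over mock with its standard error for each of the 55 transcripts, SW13+vector on the left and SW13+BRG1 on the right on a wider axis, coloured by role, with filled points at an adjusted p under 0.05 and dotted lines at a fold of 2. In the left panel 5 points are filled, all below 0, and in the right panel 14 below 0 and 1 above 0.

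E2F3, whose signals are given above, fell furthest in SW13+vector, with a log2 fold change of UV over mock of -1.37 (SE 0.31, adjusted p = 0.012), and in SW13+BRG1 it was at -2.51 (SE 0.31, adjusted p = 0.00016). Its second tested probe set was at -0.79 (SE 0.30) and -1.59 (SE 0.30). The kinase genes fell as well. DBF4 was at -0.995 (SE 0.14, adjusted p = 0.00085) in SW13+vector and -1.85 (SE 0.14, adjusted p = 6.8e-06) in SW13+BRG1, and CDC7 at -0.74 (SE 0.18, adjusted p = 0.018) and -1.48 (SE 0.18, adjusted p = 0.00015). The CDC7 call in SW13+vector was lost without vector mock array 1 or vector UV array 1. POLD3 was at -0.83 (SE 0.16, adjusted p = 0.0052) and -1.15 (SE 0.16, adjusted p = 0.00036), and ORC2 at -0.92 (SE 0.17, adjusted p = 0.0031) and -0.52 (SE 0.17, adjusted p = 0.045). A dimmer probe set of POLD3 had the opposite sign in both lines without passing the test. Averaged over its probe sets POLD3 was at -0.17 and -0.13, and neither value passed. The ORC2 call in SW13+BRG1 was lost when any array other than vector mock 3, vector UV 3, BRG1 mock 3 and BRG1 UV 2 was left out, and after quantile normalization it was -0.31.

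In SW13+BRG1 the E2F repressors and CDC25A fell as well. CDC25A was at -2.58 (SE 0.59, adjusted p = 0.0076) there and -0.55 (SE 0.59, adjusted p = 0.61) in SW13+vector, E2F8 at -1.78 (SE 0.29, adjusted p = 0.00097) and -0.48 (SE 0.29, adjusted p = 0.32), and E2F7 at -1.59 (SE 0.30, adjusted p = 0.0023) and -0.90 (SE 0.30, adjusted p = 0.06). The CDC25A signals after UV are low, and with 16 added before log2 its change in SW13+BRG1 was -1.39. Averaged over its probe sets E2F7 was at -0.78 there and did not pass. The BRG1 UV signals of E2F7 (21.2 to 32.6), of E2F8 on array 1 (21.1) and of E2F3 on array 3 (26.1) were also low. They lay near the medians of those arrays, 21.1 to 24.3. Smaller falls in SW13+BRG1 were those of ORC4 at -0.69 (SE 0.14, adjusted p = 0.0033), ORC5 at -0.70 (SE 0.15, adjusted p = 0.0043) and GMNN at -0.62 (SE 0.15, adjusted p = 0.012). GINS3 was at -0.63 (SE 0.19, adjusted p = 0.029), RFC1 at -0.71 (SE 0.18, adjusted p = 0.014) and RFC4 at -0.49 (SE 0.09, adjusted p = 0.0026). The GINS3 call was lost without any 1 BRG1 mock array or BRG1 UV array 1 or 2, and that of RFC1 without BRG1 UV array 1 or 2. ORC5 averaged over its probe sets was at -0.43 and GINS3 after quantile normalization at -0.37, and neither passed. POLD2 was the single member that rose, by 0.54 (SE 0.12, adjusted p = 0.0067), and under the scaling to hybridization controls it was at 0.14 and did not pass. None of the MCM2 to MCM7 subunits passed in either line with all arrays, their log2 fold changes ranging from -0.07 to 0.35 in SW13+vector and from -0.20 to 0.24 in SW13+BRG1.

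A call in 1 line and not in the other does not show that the responses differ, and the difference itself was tested as an interaction. For it 0 of the 55 members passed in either direction with limma, beside 0.0653% of all tested genes lower and 0.029% higher. At an unadjusted p under 0.05 there were 8 members with a more negative response in SW13+BRG1 (ORC4, GMNN, CDC7, DBF4, RFC4, E2F3, E2F8 and CDC25A) and 0 with a more positive one, beside 3.75% and 1.73% of all genes. The median interaction was -0.21 for the members and 0.01 for all genes, and 43 of the 55 lay below 0. CDC25A was at -2.03 (SE 0.83, adjusted p = 0.82), a value that rests on BRG1 UV signals below their array medians and was -0.88 with 16 added before log2. E2F8 was at -1.30 (SE 0.41, adjusted p = 0.58) and E2F3 at -1.14 (SE 0.44, adjusted p = 0.76), and both values include a BRG1 UV signal near its array median. Without the arrays numbered 3, GMNN (-0.42), DBF4 (-0.80), RFC4 (-0.46) and E2F3 (-0.95) passed, 4 members and all lower, beside 0.82% and 0.276% of all genes.

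Among the other genes of the pathway the UV response was mixed. Beside the counts that follow, 8.48% of all tested genes fell and 5.56% rose in SW13+vector, and 11.8% and 8.03% in SW13+BRG1. Of the wider replication list 2 fell and 3 rose in SW13+vector and 6 fell and 5 rose in SW13+BRG1. TOPBP1, a scaffold of origin firing and checkpoint signalling, fell in both lines (-0.88 and -0.96), as did the chromatin helicase HELLS (-0.68 and -0.93). RPA3, the small subunit of the single-strand binding protein, rose in both (0.61 and 0.53). E2F6, E2F5, CDK6 and LIN52 fell in both lines, E2F6 to log2 fold changes of -1.31 and -1.74. Of the 35 G2/M genes 5 fell in SW13+vector and 4 in SW13+BRG1, led by AURKA (-1.16 and -1.29), and none rose by this test.

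Longer genes among the members tended to lower UV to mock ratios. Over the 55 members Spearman's rho between gene length (RefSeq, GRCh38.p14) and the log2 fold change was -0.42 in SW13+vector and -0.29 in SW13+BRG1, and over 13766 genes it was -0.33 and -0.31. The points share the same arrays, and no p is given. The members that fell had a median length of 54.7 kb in SW13+vector against 23.5 kb for the other 50, and 38.7 kb in SW13+BRG1 against 22.9 kb for the other 41. For the differences between the lines rho was -0.05 in mock-treated cells and -0.01 after UV over the members.

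**Figure D5:**
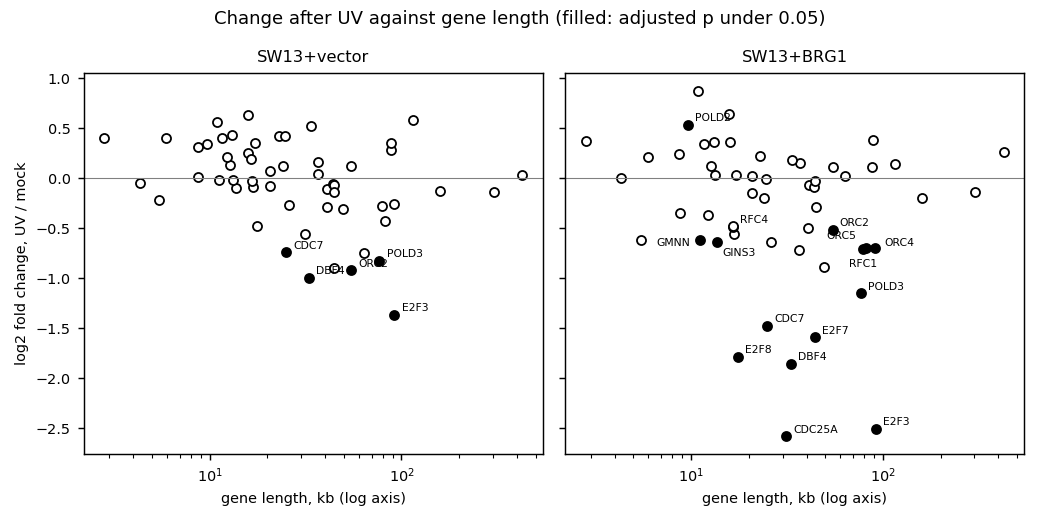
Each point is 1 of the 55 transcripts, with gene length in kb on a log axis and the log2 fold change of UV over mock on the vertical axis, SW13+vector on the left and SW13+BRG1 on the right, and filled, named points at an adjusted p under 0.05. The 5 filled points on the left are genes of 24.9 to 91.8 kb, and the 14 on the right below 0 are genes of 11.2 to 91.8 kb.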

How the data were processed

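Total RNA from 12 cultures in 4 groups of 3 was hybridized by the authors to Affymetrix U133 Plus 2.0 arrays, summarized with the MAS defaults and scaled to a mean target intensity of 125. The labels describe independent biological replicates. The authors deposited linear signal intensities for 54675 probe sets, whose mean is 125 on each array once the highest and lowest 2% are left out. Which version of MAS was used was not given in the sources read here. No detection calls were used, and the number of arrays limits the precision.

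Signals were taken to log2 without further normalization. Probe sets at or above the array median on at least 3 of 12 arrays, 32622 without the 62 controls, entered a model of 4 group means in limma 3.58.1 under R 4.3.3, with a mean-dependent trend in the eBayes prior. P values are two-sided and adjusted by the Benjamini-Hochberg method over 13784 genes, each read by its brightest probe set. The platform annotation names 1 gene for 41097 probe sets, several for 1801 and no gene for 11777, and updating symbols through gene identifiers changed 0. The fit was tested on simulated data. The labels number the arrays by experiment, and counts with that number as a block stand beside the others. Deviations from the group means correlated at 0.179 to 0.292 between arrays numbered 3 and at 0.015 to 0.141 over the other pairs with the same number, over 0.1 in 11 of all 18 pairs, against -0.22 to 0.14 over pairs with different numbers, and 8 of 12 arrays correlated best with their own number. Motifs and gene lengths were computed with Python (version 3.11.15) and pandas (version 2.3.3) from RefSeq tables of GRCh38.p14.

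The members, the wider replication, retinoblastoma and E2F, G2/M and marker lists, and the tests were chosen with earlier results of these data known. Signals on every array are given for members past the test with a fold over 2 in a comparison of 2 groups and for up to 2 further members per role with the highest signal. ORC2, RFC5, CD44 and DLC1 were added after their values were seen. Up to 4 genes of the other lists with the largest change in a comparison are named, and POLE4, HELLS, RPA3, TOPBP1 and the members of the E2F list that fell in both lines were chosen after their values were seen. Alternatives were quantile normalization, a common median, scaling to hybridization controls, log2 of signal plus 16, no filter or a 75th percentile filter, the replicate number as a block, the compared arrays alone, a prior without trend, the mean over probe sets, adjustment over probe sets, a fold over 2, the methods' t-test and leaving out each array. A fit without the arrays numbered 3, within-experiment folds and the block with quantile normalization were alternatives chosen after seeing the data.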

Additional observations from a re-analysis of the deposited data

How the results depend on the processing

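Counts of lower members between the lines moved by over 1.5 times with the methods' t-test alone, while the median log2 fold changes of the members between the lines kept their sign. The medians for UV against mock did not always do so, as given below. No member that passed the test changed sign under any alternative. Over the members past the test, 291 recomputed values missed the threshold and 2598 did not. Except where given above, the share of all tested genes under a setting is not given in this section. Counts without that share cannot be set against a background. The methods' t-test gave 6 lower and 0 higher members in mock-treated cells and 12 and 1 after UV when adjusted, and 19 and 1 in mock-treated cells and 1 higher after UV at its own threshold of an unadjusted p and a fold. For UV against mock it gave 0 lower in SW13+vector and 2 lower and 0 higher in SW13+BRG1 when adjusted, and 1 lower and 5 lower with 0 higher at its own threshold. A fold over 2 beside the adjusted p left 1 higher member between the lines in each treatment, 1 lower for UV in SW13+vector, and 7 lower and 0 higher in SW13+BRG1. Between the lines, 1 member was higher in mock-treated cells with a common median, with the compared arrays alone or without the trend, and 1 after UV without the trend. For UV in SW13+vector, 1 member rose with log2 of signal plus 16 or with the 75th percentile filter, 3 rose with the compared arrays alone, and 3 fell with the mean over probe sets. For UV in SW13+BRG1, 2 rose after quantile normalization or with the 75th percentile filter, 9 fell with the mean over probe sets, and 24 fell and 0 rose with scaling to hybridization controls, which moved the median of all tested genes by over 0.1 in every comparison that involves UV arrays. Relative to that median the members differed by the same amounts as before. Without the arrays numbered 3, 11 members fell and 13 rose in SW13+vector, 9 rose in SW13+BRG1, and 4 interactions were lower. The cause of these shifts was not tested.

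Leaving out 1 array gave 29 to 42 lower and 1 to 2 higher members in mock-treated cells, 35 to 46 and 1 to 3 after UV, 4 to 6 that fell and 0 to 2 that rose in SW13+vector, 11 to 17 and 1 to 4 in SW13+BRG1, and 0 interactions. The medians were -1.16 to -0.84 and -1.34 to -1.08 between the lines and changed sign for UV, from -0.06 to 0.08 in SW13+vector and from -0.33 to 0.09 in SW13+BRG1. With the replicate number as a block 41 members were lower and 3 higher in mock-treated cells, 48 and 3 after UV, 9 fell and 7 rose in SW13+vector, 20 fell and 3 rose in SW13+BRG1, and 0 interactions passed. All calls made without the block were kept. With the block and quantile normalization 10 fell and 5 rose in SW13+vector and 4 rose in SW13+BRG1.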
